A study of Mus musculus with 10 samples.

Results

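The 9 genes Rnf144b, Rgs2, Engase, Mtus1, Enc1, Abcd2, Gpr155, Fam214a and Lrrc14b were picked from 11617 genes measured in mouse macrophages because their mRNA was lower after 3 h of Pam3CSK4 than in untreated cells. That difference chose them, so it is given as a description with no test. Levels are in CPM, read counts relative to the scaled size of the library. Each of the 9 was among the 11407 genes whose average over the 10 libraries reached 1 CPM, called here the genes tested.

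The cells were bone-marrow-derived macrophages of C57BL/6 mice, for which one label gives an age of 6 weeks and another 7 weeks. All 5 groups were grown in medium with 10% serum and 50 ng/ml GM-CSF, a myeloid growth factor, and no allele or agent other than the ligand separated them. The groups were untreated control, AmTARS for 1 h, AmTARS for 3 h, Pam3CSK4 for 1 h and Pam3CSK4 for 3 h, with 2 libraries each. The control carried no time label, so it is 1 baseline for both times. Pam3CSK4, a lipopeptide made to resemble bacterial lipoproteins, was used at 10 ng/ml. AmTARS is the threonyl-tRNA synthetase of Akkermansia muciniphila, a bacterium of the gut; its dose is written as 0.5 with the unit mm, so the doses of the ligands cannot be set against each other. Nothing in the labels says that the libraries of a group were separate cultures or mice, so p-values measure the spread between these libraries, which may be technical.

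Toll-like receptor 2 senses bacterial lipoproteins at the surface of macrophages and passes its signal through MyD88 to NF-kB and MAP kinases. The first response is a burst of inflammatory mRNAs, and a later one also holds mRNAs that go down, among them regulators of signalling and of metabolism. A sequenced mRNA level is set by both synthesis and decay and does not separate them.

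The RNA came from populations of cells, so fewer cells of a type and less RNA per cell cannot be told apart. Of 9 macrophage marker names 8 were in the table (Csf1r, Adgre1, Cd68, Itgam, Cd14, Fcgr1, Mertk and Lyz2), and the other, Emr1, is an older name of Adgre1. Their sum was 49270 to 53970 CPM over the libraries, most of it Lyz2 (42920 to 47750 CPM). Single markers differed with Pam3CSK4 at 3 h: the efferocytosis receptor gene Mertk stood at 62.3 to 67.1 CPM in control and 28.1 to 35.4 CPM there, and the co-receptor gene Cd14 at 617.4 to 625.5 and 1667 to 2084 CPM. Mertk was also lower than control in the other treated groups (38.9 to 48.2 CPM), and Cd14 higher (800.8 to 1049 CPM). Of 7 neutrophil markers 6 were listed, without Ly6g. Their sum was 1393 and 1482 CPM in control against 2072 and 2454 CPM with Pam3CSK4 at 3 h. It was above control in the other treated groups as well, at 1868 to 2231 CPM with Pam3CSK4 at 1 h. With AmTARS it was 1879 to 1936 CPM at 1 h and 1878 to 1986 CPM at 3 h. Most of the sum came from S100a8, S100a9 and Ngp, which were higher with Pam3CSK4 at 3 h than in control, as were Elane and Camp. Mpo was not, at 13.26 to 14.91 CPM in control and 13.52 to 14.65 CPM with Pam3CSK4 at 3 h. With Pam3CSK4 at 1 h Mpo was at 10.89 to 11.09 CPM, below control. The part of neutrophils in the lower levels below was not tested. Of the dendritic cell markers Itgax, Ccr7 and H2-Ab1 were listed and Flt3, Zbtb46 and Cd209a were not. Their sum was 207.8 to 210.4 CPM in control and 238.4 to 261.4 CPM in the treated groups. Most of that gap was H2-Ab1, at 140.0 to 141.3 CPM in control and 178.7 to 201.1 CPM in the treated groups, while Itgax was not higher in any of them. Mast cell or basophil markers Kit, Cpa3 and Ms4a2 summed to 7.37 to 9.85 CPM, with Fcer1a and Mcpt4 not listed. None of 5 lymphocyte markers was listed, and 4 stromal markers summed to 1211 to 1473 CPM. Reads in listed genes were 27398791 to 37559810 per library. The Pam3CSK4 3 h libraries differed most from each other, with a chi-square per degree of freedom of 9.25 between them against 3.62 to 5.06 in the other groups. In all 9 genes, Pam3CSK4 3 h replicate 3 was lower than replicate 2.

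Promoter sequences are shown for 4 of the genes so that the starts of genes chosen for a shared difference can be compared. RefSeq's promoter table (assembly GRCm38.p6, the build of mm10) held 9 windows of 6 of the genes, each running from 250 bases before to 50 bases after a transcript start. The 6 are Rgs2, Gpr155, Fam214a, Engase, Rnf144b and Lrrc14b. The sequences read 5′ to 3′ on the gene's strand, and capitals mark any match to the motifs listed after them. The windows of Rnf144b (chr13:47122470-47122769, plus strand), Rgs2 (chr1:144004100-144004399, minus strand), Gpr155 (chr2:73386431-73386730, minus strand) and Lrrc14b (chr13:74363951-74364250, minus strand) are as follows.
Rnf144b: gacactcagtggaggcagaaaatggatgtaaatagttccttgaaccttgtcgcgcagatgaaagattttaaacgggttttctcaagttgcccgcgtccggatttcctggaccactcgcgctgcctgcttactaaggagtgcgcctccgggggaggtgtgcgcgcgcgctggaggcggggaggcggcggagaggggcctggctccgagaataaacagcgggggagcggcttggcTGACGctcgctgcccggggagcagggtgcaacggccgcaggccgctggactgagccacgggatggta
Rgs2: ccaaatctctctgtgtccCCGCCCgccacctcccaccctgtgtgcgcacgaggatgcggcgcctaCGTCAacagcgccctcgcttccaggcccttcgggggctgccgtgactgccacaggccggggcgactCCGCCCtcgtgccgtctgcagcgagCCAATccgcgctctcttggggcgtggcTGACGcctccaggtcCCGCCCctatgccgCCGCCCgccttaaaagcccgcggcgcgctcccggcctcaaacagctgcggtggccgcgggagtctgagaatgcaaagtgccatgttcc
Gpr155: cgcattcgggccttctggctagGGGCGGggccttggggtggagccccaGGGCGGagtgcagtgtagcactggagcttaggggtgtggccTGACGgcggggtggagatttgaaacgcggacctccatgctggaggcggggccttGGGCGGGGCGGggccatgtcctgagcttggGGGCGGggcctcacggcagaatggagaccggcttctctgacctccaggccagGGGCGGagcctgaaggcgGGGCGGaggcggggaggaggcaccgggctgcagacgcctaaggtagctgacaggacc
Lrrc14b: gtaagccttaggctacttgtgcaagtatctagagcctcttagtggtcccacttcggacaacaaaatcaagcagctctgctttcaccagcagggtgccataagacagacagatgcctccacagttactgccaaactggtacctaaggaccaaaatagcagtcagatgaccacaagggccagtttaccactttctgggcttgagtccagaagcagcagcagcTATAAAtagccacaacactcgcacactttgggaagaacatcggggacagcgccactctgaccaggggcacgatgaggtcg

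The motifs were searched on both strands, and some overlap, since the cAMP response element TGACGTCA contains its core TGACG. None of the 6 genes had the AP-1 motif TGANTCA, the cAMP response element, the forkhead motif TGTTTAC or the NF-kB motif (GGG, a purine, any base, a pair of pyrimidines, CC) in these windows, which 7.81%, 1.79%, 3.65% and 9.38% of all 32851 windows in the table held. The GC box GGGCGG lay in 5 of the 9 windows, 1 for each gene but Lrrc14b, against 35.7% of all windows. Gpr155 held 7 GC boxes, and a pair of them overlap. TGACG lay in 5 of the 9 windows, from Fam214a, Gpr155, Rgs2 and Rnf144b, against 20.8% of windows. Lrrc14b had no GC box and a TATA box TATAAA from 30 to 25 bases before its start. TATAAA was also in the second Rnf144b window, making 2 of 9 against 13.6% of all windows. The E-box CACGTG lay in 3 windows, all of Fam214a (7.15% of all windows), the ETS motif GGAAGT in 4 windows of Fam214a and Rnf144b (23.8%) and CCAAT in 3 windows of Fam214a and Rgs2 (37.4%). Windows of 1 gene can overlap, so they are not independent. GC content was 70.3% in the Gpr155 window, 70.0% in that of Rgs2, 62.7% in that of Rnf144b and 51.3% in that of Lrrc14b, against a median of 52.7% over all windows. A match is a description of letters and not a bound site, and the absence of letters here says nothing about a factor.

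Rnf144b and Enc1 encode proteins of the ubiquitin system. Rnf144b (chromosome 13, 47122656 to 47247991, plus strand, GENCODE M21 on GRCm38) encodes a RING-between-RING ubiquitin ligase known as a target of p53. It stood at 33.1 and 31.4 CPM in the control libraries, 29.1 and 27.3 with AmTARS at 1 h, 24.0 and 23.1 with AmTARS at 3 h, 27.3 and 26.0 with Pam3CSK4 at 1 h, and 11.6 and 9.32 with Pam3CSK4 at 3 h. Control was highest, AmTARS at 1 h lay just above Pam3CSK4 at 1 h with no overlap, AmTARS at 3 h lay below both, and Pam3CSK4 at 3 h lay far below all others. The level with Pam3CSK4 at 3 h was 32.5% of control, a log2 difference of -1.54 (SE 0.08, n = 2 per group), the lowest of all genes tested.

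Enc1 (chromosome 13, 97241105 to 97253034, plus strand) encodes a Kelch-BTB protein that can bring substrates to the ligase cullin 3. Its level was 82.2 and 83.3 CPM in control, 68.9 and 68.3 with AmTARS at 1 h, 65.4 and 62.8 with AmTARS at 3 h, 65.8 and 70.3 with Pam3CSK4 at 1 h, and 42.8 and 30.9 with Pam3CSK4 at 3 h. Each treated library was below both control libraries, the 1 h groups of both ligands overlapped, AmTARS at 3 h lay just below them, and Pam3CSK4 at 3 h stood apart. With Pam3CSK4 at 3 h it had 44.5% of the control level (log2 difference -1.17, SE 0.09), and replicate 3 had 72.2% of the level of replicate 2.

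Rgs2 and Gpr155 act in signalling from receptors and nutrients. Rgs2 (chromosome 1, 143999338 to 144004161, minus strand) encodes a GTPase-activating protein that ends signalling by Gq-coupled receptors. It was the most abundant of the 9, at 113.4 and 120.3 CPM in control, 116.5 and 126.6 with AmTARS at 1 h, 122.3 and 113.8 with AmTARS at 3 h, 124.8 and 120.1 with Pam3CSK4 at 1 h, and 57.7 and 49.0 with Pam3CSK4 at 3 h. The first 4 groups overlapped, and Pam3CSK4 at 3 h alone lay apart, at 45.6% of control (log2 difference -1.12, SE 0.07). Against AmTARS at 3 h, Rgs2 had the lowest difference of all genes tested with Pam3CSK4 at 3 h, at -1.14 (SE 0.07).

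Gpr155 (chromosome 2, 73341506 to 73386572, minus strand) encodes a lysosomal membrane protein known as a cholesterol sensor upstream of the kinase mTORC1. Its control libraries stood at 7.97 and 8.54 CPM, those of AmTARS at 1 h at 7.03 and 7.15, of AmTARS at 3 h at 5.42 and 5.14, of Pam3CSK4 at 1 h at 6.56 and 7.24, and of Pam3CSK4 at 3 h at 3.06 and 2.55. Control was highest, both 1 h groups overlapped, and the 3 h groups followed in 2 separate steps. The level with Pam3CSK4 at 3 h was 34.0% of control (log2 difference -1.29, SE 0.10).

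Abcd2 and Engase encode a transporter and an enzyme of metabolism. Abcd2 (chromosome 15, 91145871 to 91191799, minus strand) encodes a peroxisomal ABC transporter of very long chain fatty acids bound to coenzyme A. It stood at 31.6 and 33.6 CPM in control, 27.9 and 28.4 with AmTARS at 1 h, 22.4 and 22.3 with AmTARS at 3 h, 28.5 and 28.1 with Pam3CSK4 at 1 h, and 13.9 and 11.3 with Pam3CSK4 at 3 h. The order was that of Gpr155, with control highest and the 1 h groups overlapping. With Pam3CSK4 at 3 h the level was 38.7% of control (log2 difference -1.31, SE 0.08).

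Engase (chromosome 11, 118476829 to 118489209, plus strand) encodes the cytosolic enzyme that cuts N-glycans released from misfolded glycoproteins. Control libraries had 21.5 and 20.8 CPM, AmTARS at 1 h 22.7 and 24.8, AmTARS at 3 h 20.8 and 19.3, Pam3CSK4 at 1 h 24.7 and 23.2, and Pam3CSK4 at 3 h 12.0 and 8.96. Both 1 h groups were above control and overlapped each other, AmTARS at 3 h overlapped control, and Pam3CSK4 at 3 h was the lowest. Its 49.5% of control (log2 difference -0.96, SE 0.09) was the smallest difference of the 9.

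Mtus1 (chromosome 8, 40990914 to 41133726, minus strand) encodes a microtubule-associated protein described as a tumour suppressor. It was at 78.5 and 77.6 CPM in control, 65.4 and 67.6 with AmTARS at 1 h, 57.8 and 54.7 with AmTARS at 3 h, 63.6 and 62.1 with Pam3CSK4 at 1 h, and 37.0 and 25.3 with Pam3CSK4 at 3 h. No groups overlapped, and the order from the top was control, AmTARS at 1 h, Pam3CSK4 at 1 h, AmTARS at 3 h and Pam3CSK4 at 3 h. The last was at 39.9% of control (log2 difference -1.32, SE 0.10), and replicate 3 had 68.5% of replicate 2, the widest gap within that group among the 9.

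Fam214a and Lrrc14b are less well characterised. Fam214a (chromosome 9, 74952884 to 75032468, plus strand) had 10.97 and 11.14 CPM in control, 9.85 and 11.6 with AmTARS at 1 h, 7.93 and 9.05 with AmTARS at 3 h, 10.7 and 11.3 with Pam3CSK4 at 1 h, and 5.14 and 4.05 with Pam3CSK4 at 3 h. Control and both 1 h groups overlapped, AmTARS at 3 h was below them, and Pam3CSK4 at 3 h was lowest, at 41.6% of control (log2 difference -1.11, SE 0.10).

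Lrrc14b (chromosome 13, 74359578 to 74364005, minus strand), named for its leucine-rich repeats, had 9.28 and 8.65 CPM in control, 8.11 and 8.01 with AmTARS at 1 h, 5.99 and 5.09 with AmTARS at 3 h, 7.30 and 7.52 with Pam3CSK4 at 1 h, and 3.47 and 2.58 with Pam3CSK4 at 3 h. No groups overlapped, and the order was that of Mtus1. The level with Pam3CSK4 at 3 h was 33.7% of control (log2 difference -1.32, SE 0.11) and rested on 118 and 93 reads against 325 and 310 in control. Exons of Lrrc14b overlap those of Ccdc127 on the other strand, and the library kit was stranded but whether counting used the strand is not given in the sources used here. Ccdc127 stood at 37.2 to 38.7 CPM in control and 32.3 to 33.6 with Pam3CSK4 at 3 h, a log2 difference of -0.20 (SE 0.06; limma, adjusted p = 0.0089), so the value of Lrrc14b is uncertain to the extent that reads were shared. Engase, Mtus1 and Gpr155 overlap exons of other-strand genes that are not in the table (Gm11748 for Engase, B430010I23Rik and Gm16192 for Mtus1, Gm13703 and Gm13709 for Gpr155).

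**Figure D1:**
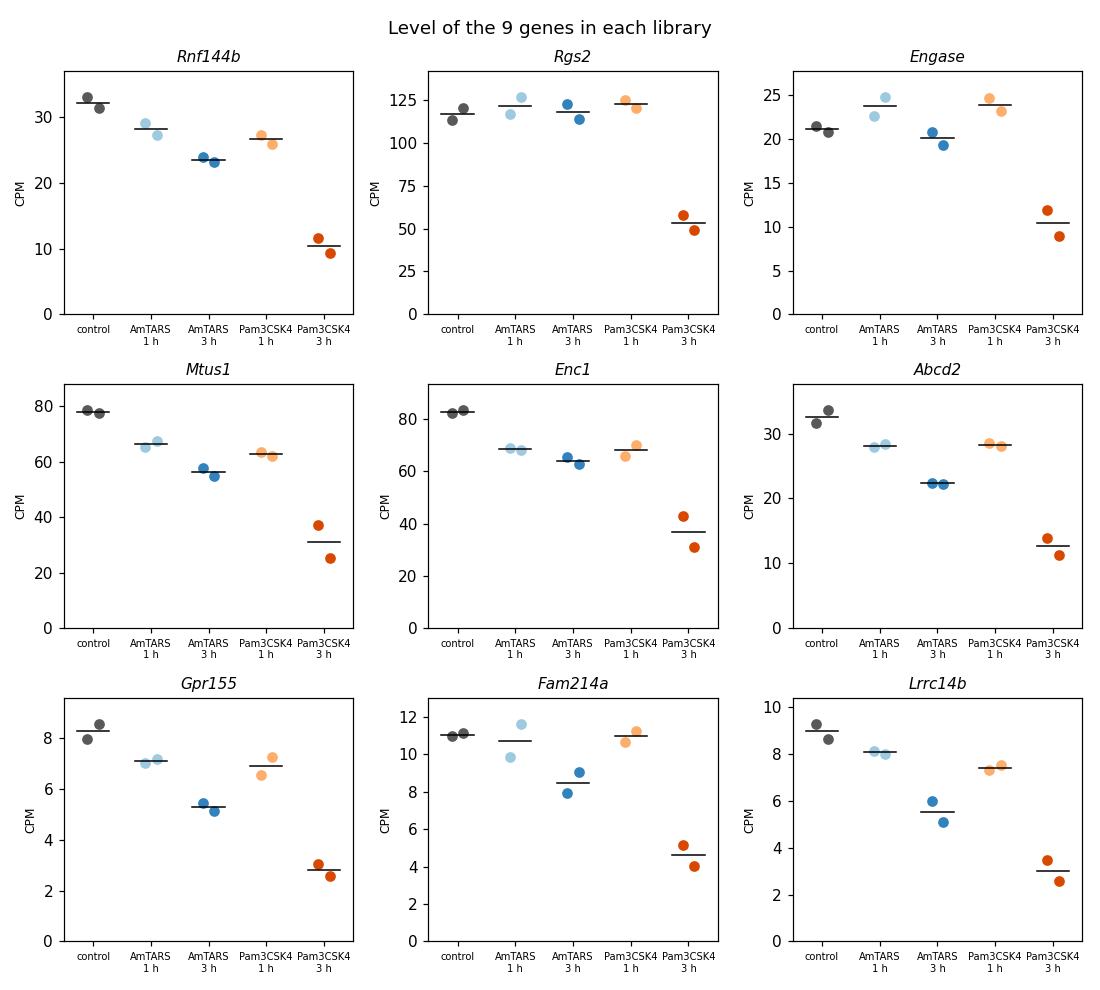
CPM of each of the 9 genes (1 panel a gene, axis from 0) in each library (points) of the 5 groups, with the group mean as a line. Both Pam3CSK4 3 h libraries lie below each other library in every panel, and Rgs2 is level in the other 4 groups.

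Compared per kilobase of the longest transcript, the control levels ran from 38.7 CPM per kilobase for Rgs2 through Enc1 (17.5), Mtus1 (11.9), Rnf144b (6.95), Abcd2 (5.89), Engase (4.91), Lrrc14b (3.26) and Fam214a (2.54) to 1.63 for Gpr155. No neighbours in that order overlapped. With Pam3CSK4 at 3 h Rgs2 remained the highest at 17.7 and Gpr155 the lowest at 0.554 CPM per kilobase. Engase (2.43), Abcd2 (2.28) and Rnf144b (2.26) then overlapped, as did Lrrc14b (1.10) and Fam214a (1.06).

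Among the genes tested the 9 took ranks 1, 3, 4, 5, 7, 9, 12, 15 and 31 from the lowest log2 difference with Pam3CSK4 at 3 h against control, in the order Rnf144b, Mtus1, Lrrc14b, Abcd2, Gpr155, Enc1, Rgs2, Fam214a and Engase. Their median was -1.29 against -0.01 over all genes tested. Both Pam3CSK4 3 h libraries were below both controls for 9 of 9, and for 38.5% of all genes tested; nothing is read from this, since the genes were chosen on it. On the log2(CPM + 1) scale 26 genes in all were at least 2-fold lower, 8 of them from these 9. Engase, the other, was at 49.5% of control in CPM. Another 22 genes were lower by as much as Engase or more, led by 9930111J21Rik1 (-1.35), Bmf (-1.30), Lpar5 (-1.20), Arrdc3 (-1.16) and Xylt1 (-1.15). Bmf encodes a pro-apoptotic protein of the Bcl-2 family, Lpar5 a receptor for lysophosphatidic acid and Xylt1 an enzyme that starts proteoglycan sugar chains. Just above Engase (-0.96) lay Irs2 (-0.96), Mgat5 (-0.95) and Slc29a3 (-0.95). With Pam3CSK4 at 1 h, Xylt1 stood at -1.06, Mgat5 at -1.15, Irs2 at -0.95 and 9930111J21Rik1 at -1.33, while Bmf (-0.14) and Arrdc3 (-0.16) lay within the range of the 9 genes at that time, -0.31 to 0.17.

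Between 1 h and 3 h of Pam3CSK4 the genes differed, with 39.4% to 54.1% of the 1 h mean at 3 h, a median log2 difference of -1.10. Both 3 h libraries were below both 1 h libraries for 9 of 9 genes, and for 33.5% of all genes tested. Against AmTARS at 3 h the median was -0.80, from -1.14 for Rgs2 to -0.71 for Lrrc14b, again with the libraries apart for 9 of 9 and for 28.6% of all genes. These comparisons share the Pam3CSK4 3 h libraries with the choice of the genes and were not tested.

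At 1 h the differences from control were small for both ligands. With Pam3CSK4 the median was -0.23, and libraries lay apart and lower for 6 of 9 genes (38.2% of all genes tested) and apart and higher for 1, Engase (37.6%). With AmTARS the median was -0.19, with 6 apart and lower (35.6%) and 1 apart and higher, again Engase (34.8%). These 1 h shares are to be read beside a trend across genes, in which long transcripts were lower in treated than in control libraries. Transcript length and log2 difference were related at a Spearman correlation, across 11014 genes that are not independent, of -0.70 for Pam3CSK4 and -0.71 for AmTARS at 1 h. The longest annotated transcripts of the 9 genes measured 2755 nt (Lrrc14b) to 6548 nt (Mtus1) against a median of 3410 nt. After each library was corrected for length and GC content, the median of the 9 was -0.05 with Pam3CSK4 at 1 h and -0.03 with AmTARS at 1 h. The part of length in the difference of any single gene was not tested.

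At 3 h the corrected median was -1.14 with Pam3CSK4 (Spearman correlation -0.49) and -0.28 with AmTARS (Spearman correlation -0.64), against -1.29 and -0.44 as deposited. With AmTARS at 3 h, 7 of 9 genes had both libraries below both controls, against 35.4% of all genes tested. They ran from -0.35 for Fam214a to -0.61 for Lrrc14b, while Rgs2 (0.01) and Engase (-0.07) overlapped control. Lrrc14b was at 61.7% of control with AmTARS at 3 h and 33.7% with Pam3CSK4 at 3 h, Gpr155 at 64.0% and 34.0%, and Abcd2 at 68.6% and 38.7%. Rgs2 was at 101.0% and 45.6%. Both comparisons use the same control libraries.

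**Figure D2:**
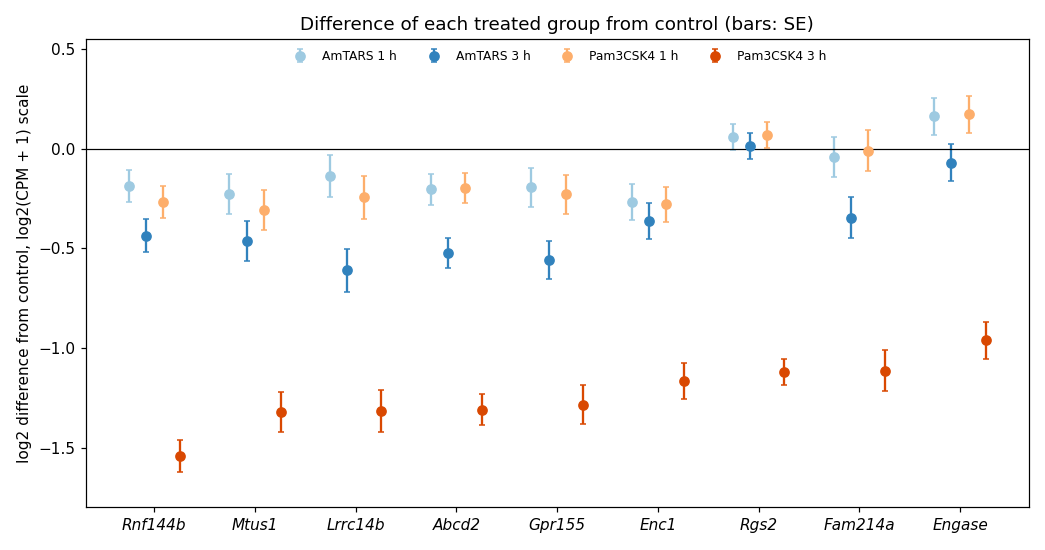
Log2 difference from control (vertical axis, log2(CPM + 1) scale) of each gene in the 4 treated groups, with bars of 1 SE of the limma fit. Pam3CSK4 at 3 h lies between -1.54 and -0.96, while Rgs2 lies between 0.01 and 0.07 in the other groups and Engase between -0.07 and 0.17.

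Whether the genes also moved with AmTARS over time was tested, since the stated rule for choosing them used neither AmTARS group. The choice was made with earlier results of these data known, so it may not be free of the AmTARS values. The shares below are therefore a description beside the test and not independent support. All 9 were lower at 3 h than at 1 h, with a median log2 difference of -0.25 against 0.00 over all genes tested, and 8 of 9, all but Rgs2, had both 3 h libraries below both 1 h libraries, against 21.1% of all genes. By limma with Benjamini-Hochberg adjustment over all genes tested, 2 of 9 fell, against 0.57% of all genes, and 7 of 9 were lower at an unadjusted p below 0.05, against 5.01% of all genes. Lrrc14b fell from a mean of 8.06 to 5.54 CPM (log2 difference -0.47, SE 0.11, adjusted p = 0.0176), the 10th lowest difference of all genes. Abcd2 fell from 28.1 to 22.3 CPM (-0.32, SE 0.08, adjusted p = 0.0255). Gpr155 stood at -0.36 (SE 0.10, adjusted p = 0.0522), Fam214a at -0.31 (adjusted p = 0.161), Rnf144b at -0.25 (adjusted p = 0.134), Mtus1 at -0.24 (adjusted p = 0.314) and Engase at -0.23 (adjusted p = 0.284), none of which passed. Enc1 (-0.10) and Rgs2 (-0.04) were nearest to 0, with 95% intervals of -0.28 to 0.09 and -0.18 to 0.10.

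The length trend ran the other way in this comparison (Spearman correlation 0.20), and after the correction Rnf144b and Gpr155 passed as well (adjusted p = 0.0404 and 0.0183), so 4 of 9 fell, against 1.22% of the genes in that fit. With 2 libraries a group each call rests on each library: none passed without either AmTARS 1 h library or without AmTARS 3 h replicate 3, and Lrrc14b alone passed without AmTARS 3 h replicate 1. None passed without the intensity trend in the spread. With the replicate number as a term the count was 0 as deposited and 2 (Lrrc14b and Abcd2) after the correction. Without either Pam3CSK4 3 h library, which enter only through the shared spread, 5 passed. Over all 23 settings the adjusted p ran from 0.00172 to 0.326 for Lrrc14b and from 0.00133 to 0.226 for Abcd2, and the direction of both stayed negative.

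The ligands were compared at 1 h in the same way. The genes were picked as lower late, so their Pam3CSK4 1 h values (log2 difference from control -0.31 to 0.17) may bear on the choice. A lack of difference here is then not a free test. Pam3CSK4 minus AmTARS gave a median of -0.01, from -0.11 for Lrrc14b to 0.03 for Fam214a. Libraries lay apart and lower for 3 genes (Rnf144b, Mtus1 and Lrrc14b) and for 18.9% of all genes tested. None of the 9 passed in limma, with 0 at an unadjusted p below 0.05 and 0 in voom on the recovered reads, and 0.00877% of all genes were called lower and 0.175% higher. The 95% intervals of the 9 together spanned -0.33 to 0.24. Differences within the interval of a gene are not excluded for that gene, so the ligands are not shown to act alike.

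**Figure D3:**
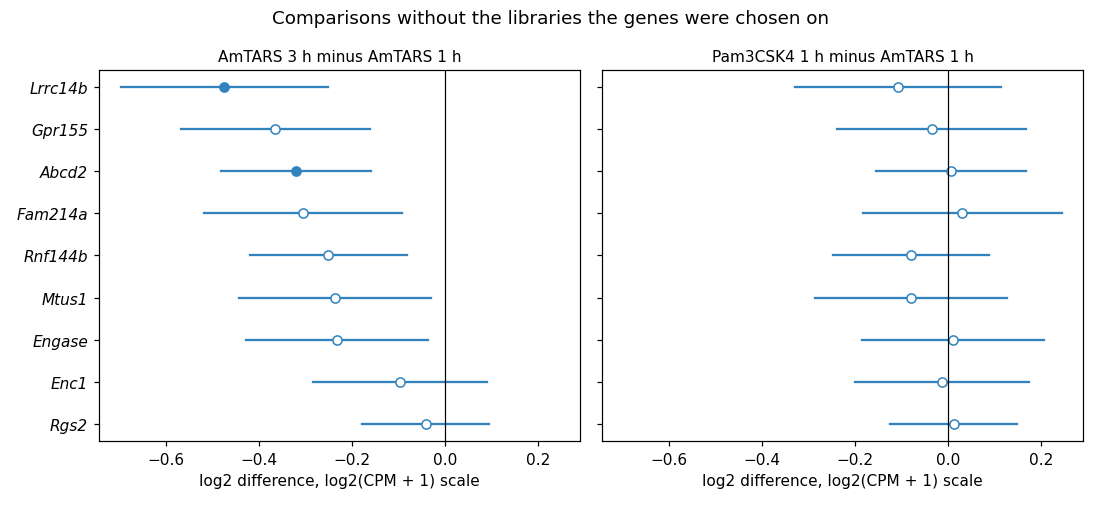
Log2 difference with its 95% interval for each gene in AmTARS at 3 h against 1 h (left) and in Pam3CSK4 against AmTARS at 1 h (right); filled points have an adjusted p below 0.05 in limma. On the left Lrrc14b and Abcd2 are filled and all 9 points lie below 0; on the right each interval includes 0.

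**Figure D4:**
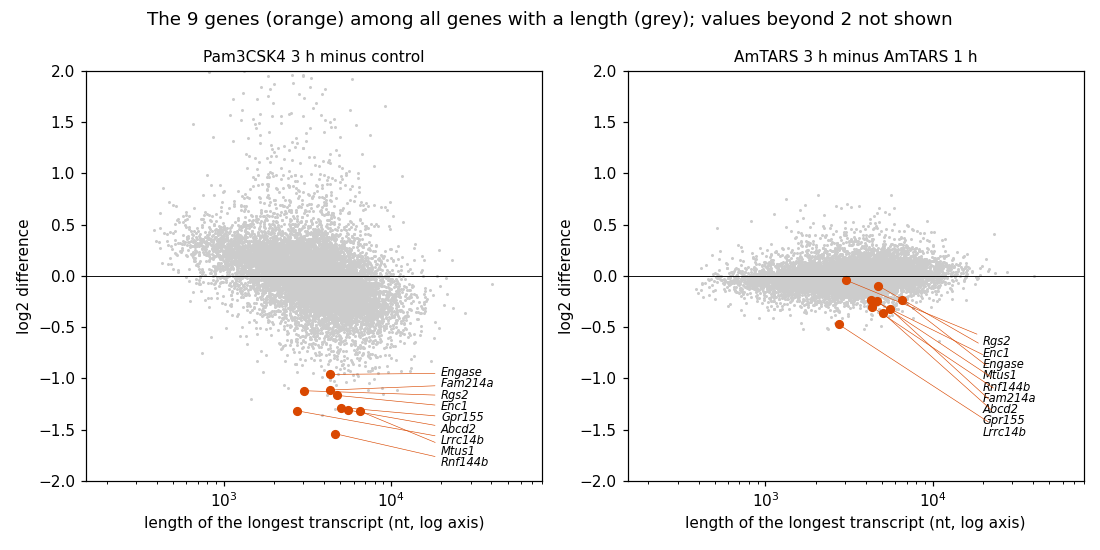
Log2 difference (vertical) against the length of the longest transcript (horizontal, log axis) for 11014 genes (grey) and the 9 genes (orange), for Pam3CSK4 at 3 h against control (left, where 20 genes lie beyond 2) and AmTARS at 3 h against 1 h (right). On the left long transcripts tend to be lower. The 9 lie below most genes of like length there, which follows from their choice on this difference.

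Over the 10 libraries the 9 genes correlated with each other at a Pearson r of 0.897 to 0.995 (median 0.963, 36 pairs), a description in which the Pam3CSK4 3 h libraries that chose them weigh most. Rgs2 and Engase were most like each other (0.979), Mtus1 and Enc1 likewise (0.994), and Abcd2 and Gpr155 likewise (0.995). Lrrc14b was most like Gpr155, and both Rnf144b and Fam214a were most like Abcd2. Outside the 9, the closest to their mean were 4632428N05Rik, Mettl13, Arhgap25, Bmf and Arhgap19 (r = 0.992 to 0.994). Arhgap25 and Arhgap19, which encode GTPase-activating proteins, stood at -0.70 and -0.87 with Pam3CSK4 at 3 h, and Mettl13 and 4632428N05Rik at -0.46 and -0.53.

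Relatives of the 9 genes were taken from 9 lists of families and pathways, 150 other genes in all. With Pam3CSK4 at 3 h against control, 47 of them fell and 27 rose by limma, beside 24.2% and 24.7% of all genes tested, with a median of -0.06. With AmTARS at 3 h 32 fell and 24 rose, beside 17.9% and 18.8%. These shares belong to the fit as deposited, and the counts after the length and GC correction below have no such share beside them. Without Pam3CSK4 3 h replicate 3, 30 fell in place of 47. The relatives named next had adjusted p-values in limma between 1.82e-11 and 0.0369. Their values are those with Pam3CSK4 at 3 h, and some were as far from control, or on its other side, at 1 h or with AmTARS.

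Relatives of Rnf144b and Enc1 came from 3 lists. Of 12 other RING-between-RING ligases 6 rose, 2 fell and 4 did not pass with Pam3CSK4 at 3 h (median 0.16), and after the length and GC correction 6 rose and none fell. Rnf144a, the closest relative of Rnf144b, rose from 4.99 ± 0.180 to 8.53 ± 1.09 CPM (SD, n = 2; log2 difference 0.67, SE 0.11), and Rnf19b rose by 0.98 (SE 0.05) and Rnf14 by 0.30 (SE 0.06). Of 20 p53 target genes 6 rose, 4 fell and 10 did not pass, and 8 rose and 4 fell after the correction. The death receptor gene Fas stood at 1.49 (SE 0.10), the cytokine gene Gdf15 at 1.15 (SE 0.08) and Sesn1, whose product restrains mTORC1, at -0.76 (SE 0.06). Of 27 genes of Kelch-BTB adaptors and cullin 3, 11 fell, 1 rose and 15 did not pass, and 8 fell and 1 rose after the correction. Klhl24 fell from 60.4 ± 0.408 to 34.5 ± 4.22 CPM (-0.80, SE 0.07), and Klhl11 and Klhl28 fell by 0.63 and 0.58. With Pam3CSK4 at 1 h Klhl11 and Klhl28 already stood at -0.68 and -0.77, and Klhl24 at -0.53. With AmTARS at 3 h the 3 genes Klhl11, Klhl28 and Klhl24 stood at -0.55, -0.63 and -0.56.

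Relatives of Rgs2 and Gpr155 also came from 3 lists. Of 9 other RGS genes 1 rose, Rgs16 by 0.63 (SE 0.10), 1 fell, Rgs14 at -0.23 (SE 0.06), and 7 did not pass, with a median of 0.05; after the correction 3 rose and 3 fell. Of 11 alpha subunits of G proteins 2 rose and 2 fell, or 3 and 3 after the correction. Gna12 stood at -0.51 (SE 0.06), Gna11 at -0.20 and Gnaq, the subunit on which Rgs2 acts, at 0.16 (SE 0.05). At 1 h Gnaq lay below control, at -0.27 with Pam3CSK4 and -0.24 with AmTARS. Rgs14 lay above control with Pam3CSK4 at 1 h, at 0.22. Of 23 genes of lysosomal nutrient sensing, the pathway of Gpr155, 9 fell and 7 rose, or 8 and 3 after the correction. Fnip2 and Fnip1, partners of folliculin, fell by 0.93 (SE 0.07) and 0.52, and Rragd, a GTPase that recruits mTORC1 to lysosomes, fell by 0.46.

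Of 17 genes of peroxisomal transport and beta-oxidation, the setting of Abcd2, 6 fell and 2 rose, or 7 and 2 after the correction. Crot and Acox3, a carnitine acyltransferase and an acyl-CoA oxidase, fell by 0.49 (SE 0.07) and 0.39 (SE 0.05), and the thiolase gene Acaa1a rose by 0.27. Of 15 genes of glycan breakdown beside Engase 4 fell and 1 rose, or 8 and 1 after the correction, with the lysosomal enzyme genes Manba and Man2b1 at -0.25 and -0.20. Of 16 genes of microtubule plus-end proteins, listed beside Mtus1, 8 fell and 1 rose as deposited, while 3 fell and 2 rose after the correction. As deposited, Apc fell by 0.56 (SE 0.07), and Mapre2 and Clasp2 stood at -0.43 each. With AmTARS at 3 h Apc stood at -0.57, Mapre2 at -0.24 and Clasp2 at -0.30.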

How the data were processed

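Poly-A RNA libraries made with a stranded kit were aligned by STAR 2.5.1 to mm10 and handled in R 3.3.0, per the submitters' processing notes; how reads were counted, annotated and scaled is not given in the sources used here. In the table the authors deposited were log2(CPM + 1) values, with a pseudocount of 1, of 11617 genes in 10 libraries; 100% of values gave whole reads within 0.1 read. Gene annotation came from GENCODE M21 and promoters from RefSeq.

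Differences came from limma 3.58.1 (R 4.3.3) with 1 mean per group over all libraries, an intensity trend, a mean of at least 1 CPM, Benjamini-Hochberg adjustment within each of 8 contrasts and a threshold of 0.05. SE is the moderated standard error and pools the spread of all groups; for the more variable Pam3CSK4 3 h group it can be understated. Folds of genes of low level are understated on this scale. The fit was tested on simulated data.

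The members and lists were chosen with earlier results of these data known. The 9 genes were tested only where no library of the Pam3CSK4 3 h or control groups was compared. Named beside them were up to 3 other genes per list with the largest difference past the threshold, the 5 most alike and the 5 lowest genes (names beginning with Gm or ending with Rik left out of the last). One gene that this rule would name is not reported here.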

Additional observations from a re-analysis of the deposited data

Results flagged for a closer look

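For Rgs2 and Engase the time points of Pam3CSK4 lay on opposite sides of the control mean. Both 1 h libraries of Rgs2 were above it (log2 difference 0.07) and both 3 h libraries below it (-1.12), a gap of 1.19, and Engase stood at 0.17 and -0.96, a gap of 1.13. With AmTARS, Engase stood at 0.16 at 1 h and -0.07 at 3 h, a gap of 0.23. Rgs2 with Pam3CSK4 at 1 h overlapped control (95% interval -0.07 to 0.20), as did Engase with AmTARS at 3 h (-0.27 to 0.12). The 1 h intervals of Engase also included 0, at -0.02 to 0.37 with Pam3CSK4 and -0.03 to 0.36 with AmTARS. The Pam3CSK4 gaps were not tested, because the 3 h libraries chose the genes. The AmTARS gap of Engase was tested as 3 h against 1 h and did not pass (limma, adjusted p = 0.284; 0.161 after the length and GC correction).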

How the results depend on the processing

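Under 22 alternatives all 594 values of the 9 genes in the comparisons with Pam3CSK4 at 3 h stayed below 0. The genes were chosen for low values in these same libraries, so the sign follows largely from the choice and is no support. The median against control was -1.07 with a pseudocount of 5 and -1.14 after the length and GC correction, with or without the replicate block, and -1.40 to -1.06 when each library was left out, the lowest without Pam3CSK4 3 h replicate 2 and the highest without replicate 3. Against Pam3CSK4 at 1 h it was -1.20 with a pseudocount of 0.25, -0.91 with 5, -1.21 with voom, and -1.25 to -0.96 leaving out libraries. Against AmTARS at 3 h it was -0.70 with a pseudocount of 5 and -1.03 to -0.63 leaving out libraries. After the correction, the medians against control were -0.045 (Pam3CSK4 1 h), -0.03 (AmTARS 1 h) and -0.282 (AmTARS 3 h); with the replicate block as well they were -0.026, -0.03 and -0.248.

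In AmTARS at 3 h against 1 h, 2 genes passed; 0 passed without the intensity trend or with the replicate block, 4 after the correction, 5 in a fit of the 4 libraries alone, and 0 to 5 leaving out libraries. Replicate numbers were shared across groups, but the deviations of same-numbered libraries correlated at -0.206 to 0.204, so the block is not taken as a pairing. Rgs2 ran from -0.101 to 0.018 there. In Pam3CSK4 against AmTARS at 1 h, where no gene passed under any alternative, leaving out libraries gave -0.047 to 0.072 (Rgs2), -0.052 to 0.072 (Engase), -0.059 to 0.034 (Enc1), -0.005 to 0.017 (Abcd2), -0.098 to 0.028 (Gpr155) and -0.079 to 0.14 (Fam214a). Signs also turned with the replicate block (Rgs2 -0.023, Enc1 0.071), after the correction (Enc1 0.005, Gpr155 0.004) and with both (Engase -0.013, Enc1 0.066, Gpr155 0.015). The cause was not tested.

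Of the 150 listed relatives 30 to 46 fell with Pam3CSK4 at 3 h leaving out libraries, counts chosen after seeing the data. Within 100 bases before the start GC boxes lay in 4 of 9 windows, from 4 genes, against 24.7% of all windows. Quantile or median scaling moved the median of all genes by less than 0.1 on the log2 scale. Where a library is left out, the lone library of that group is assumed to vary like the others. At the lowest levels, 92 to 118 reads (Gpr155 and Lrrc14b with Pam3CSK4 at 3 h), counting error limits the values.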
